A study of Mus musculus with 2 samples.

Results

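The cells described here are epithelial cells of the library labelled Pax6 heterozygous that carried the conjunctival keratins Krt4, Krt7 and Krt19 and little Krt12, the keratin that marks corneal epithelium. They numbered 1538 of the 19696 cells kept from both libraries of the series, and 16.1% (95% Clopper-Pearson interval 15.4 to 16.9) of the 9542 cells kept from their own library. They were chosen on measured UMIs, that is, on unique molecular identifiers, each of which marks 1 captured RNA molecule. Barcodes were kept with 500 or more genes, 1000 or more UMIs and no more than 20% mitochondrial UMIs, and a kept cell was taken when Krt5, Krt14 and Krt15 together made up at least 30, Krt12 under 60, and Krt4, Krt7 and Krt19 together at least 10 of every 10000 UMIs. Cells with 5 or more UMIs of Ube2c, Ccnb1, Plk1 and Cenpf, or of Hist1h1b, Hist1h2ap and Rrm2, were left out as cycling cells. These values of the keratins are therefore a description and not a finding, and so is every comparison with cells split off by the same keratins.

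The series holds single-cell RNA libraries of the dissociated cornea and limbus of mice, 1 labelled wild type (genotype wt) and 1 labelled Pax6 heterozygous (genotype Pax6 +/-). Lens, retina and iris had been taken out and most, but not all, of the conjunctiva had been cut away, per the labels. The series text speaks of 2 mice per genotype, and neither strain, age, sex, the Pax6 allele nor any pooling is named. With 1 library per genotype there is no replicate, no test and no p-value, and genotype, mouse, dissection and library cannot be told apart. All intervals below are 95% intervals that cover counting error only.

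The conjunctiva is the mucosal epithelium that covers the white of the eye and lines the lids, and it meets the corneal epithelium at the limbus, where the corneal stem cells lie. Conjunctival epithelium is stratified, carries membrane mucins, contains goblet cells and is known for Krt4, Krt7, Krt13 and Krt19, whereas differentiated corneal epithelium is known for Krt12. Pax6 is a transcription factor of eye development that both epithelia keep expressing, and loss of 1 copy is known to cause a corneal surface disease in which cells with conjunctival features lie on the cornea.

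Pax6 itself was read in every group. Its level was 830 CPM (UMIs per 1000000 summed UMIs, mitochondrially encoded genes left out) in the conjunctival-like cells. It was 735 CPM in the 4077 cells of the same library that met the other limits but had a keratin sum under 10 (keratin-low cells below). The 7361 wild-type cells with Krt12 of at least 60 per 10000 UMIs (wild-type Krt12-high cells) had 365 CPM. Non-epithelial reference cells, taken as cells with at least 10 UMIs of vessel, mural, Schwann or immune markers and few keratins, had 19.0 CPM in the library labelled Pax6 heterozygous and 47.1 CPM in the wild type. Pax6 UMIs were thus not fewer in the heterozygous cells, but without knowing the allele, UMIs summed over the whole gene check neither the label nor the dose of functional protein.

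The 1538 cells were the upper end of a continuous range of the keratin sum. Of the 5615 non-cycling Krt12-low cells with basal keratins in the library, they made up 27.4% (26.2 to 28.6). Bins of equal width held 247 cells just below the limit, from 8 to 10 per 10000 UMIs, and 174 just above it, from 10 to 12. In those outside bins Krt4 stood at 549 CPM and Krt19 at 58.1 CPM, and in those inside at 699 and 95.2 CPM. In the wild-type library 44 of 296 such Krt12-low cells (14.9%, 11.0 to 19.4) met the same rule, which was 0.433% (0.315 to 0.581) of all kept wild-type cells. Krt12-high cells rarely carried the keratins, with 20 of 409 (4.89%, 3.01 to 7.45) at the limit or above in the library labelled Pax6 heterozygous and 29 of 7361 (0.394%, 0.264 to 0.565) in the wild type. Among cycling Krt12-low cells of the heterozygous library, which the rule leaves out, 156 of 701 (22.3%, 19.2 to 25.5) reached the limit.

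**Figure D1:**
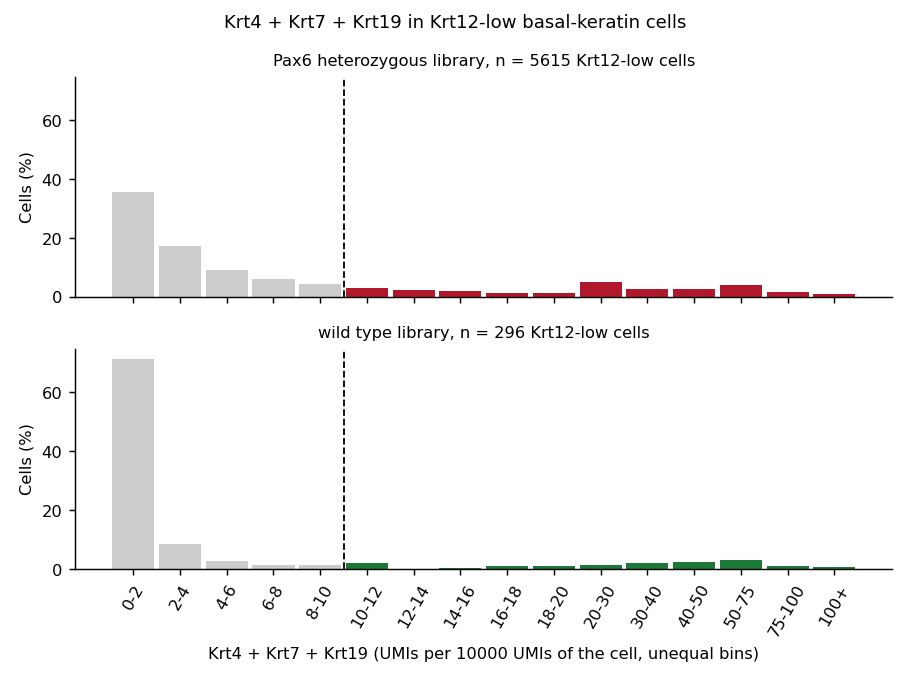
Share of non-cycling Krt12-low basal-keratin cells (vertical axis, percent) by the summed Krt4, Krt7 and Krt19 (horizontal axis, UMIs per 10000, bins of unequal width), for 5615 cells of the library labelled Pax6 heterozygous (top) and 296 wild-type cells (bottom). The dashed line is the limit of 10, coloured bars are the cells that meet the rule, and 3.10% and 2.03% of the cells fall in the first bin above it.

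The library held RNA of male and female cells, which must come from different mice. Of the conjunctival-like cells, 813 (52.9%) had Xist UMIs and no UMI of the Y-linked genes Ddx3y, Eif2s3y, Kdm5d and Uty, and 496 (32.3%) had Y-linked UMIs and no Xist. Another 79 cells (5.14%) had both kinds and 150 (9.75%) neither. The share of non-cycling basal-keratin cells that met the rule was 27.9% (26.2 to 29.5) among Xist-only cells and 22.1% (20.4 to 23.9) among Y-linked-only cells, so the cells came from both sexes. The wild-type library held 9603 Xist-only and 0 Y-linked-only kept cells, so counts of genes against it are also given for the Xist-only cells.

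Facts of the libraries that bear on all values are few. They held 124540296 UMIs in 11354 barcodes (wild type) and 131567589 UMIs in 10574 barcodes (Pax6 heterozygous), and 40 barcode sequences occurred in both, 5 of them among the conjunctival-like cells. The median cell had 15696 UMIs among conjunctival-like, 12910 among keratin-low and 10912 among wild-type Krt12-high cells. Markers of other cell types were low. The 7 fibroblast markers, of which 5 reached 5 CPM, summed to 409 CPM in conjunctival-like, 673 CPM in keratin-low and 107 CPM in wild-type Krt12-high cells, against 16459 CPM in the heterozygous reference cells. Of the 7 immune markers none reached 5 CPM and Ptprc was at 0, and of the 5 melanocyte markers none reached 5 CPM and Tyrp1 was at 0. Of the 7 endothelial, 4 lymphatic, 5 mural and 4 Schwann markers, 1, 1, 1 and 0 reached 5 CPM. A total of 3 or more UMIs of these types was present in 54.9% of conjunctival-like, 55.1% of keratin-low and 4.58% of wild-type Krt12-high cells, and counts without such cells are among the alternatives given at the end.

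The marker genes of the label, all of them keratins that the rule used to choose the cells, were all present. Krt4, a mucosal type II keratin, was at 2504 CPM in the conjunctival-like cells, 152 CPM in the keratin-low cells, 30.4 CPM in the wild-type Krt12-high cells and 9.94 CPM in the heterozygous reference cells. Krt19, a small type I keratin of simple and mucosal epithelia, was at 1096, 12.9, 20.6 and 3.85 CPM in the same order. Krt7, a type II keratin of simple epithelia, was at 461, 135, 0.908 and 6.45 CPM. Krt15, a type I keratin of basal cells of the limbus and conjunctiva, was at 22940, 5996, 1989 and 86.7 CPM. Krt14, the basal type I keratin, went the other way within the library, with 3253 CPM in the conjunctival-like and 5628 CPM in the keratin-low cells. Its type II partner Krt5 was at 5757 and 3338 CPM. Krt12 was at 103 and 100 CPM against 31764 CPM in the wild-type Krt12-high cells, which the rule sets, and 83.2% of the conjunctival-like cells had no Krt12 UMI at all.

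Cells differed widely in these keratins. The keratin sum ran from 10.0 over a median of 26.8 to 204 per 10000 UMIs. Krt4 had a median of 17.0 (quartiles 9.63 and 32.9, highest 148) and Krt7 one of 3.45 (1.26 and 6.93, highest 38.3). Krt19 had a median of 3.80 (0 and 12.9, highest 64.1), and 31.5% of the cells had no Krt19 UMI. Krt15 had a median of 201 (113 and 293), against 38.4 in the keratin-low cells. Krt14 was the most uneven, with a median of 9.24, quartiles of 0.627 and 46.2 and a highest value of 355. All 3 keratins had a UMI in 932 cells (60.6%), Krt4 and Krt7 without Krt19 in 365 (23.7%), Krt4 and Krt19 without Krt7 in 103 (6.70%), Krt4 alone in 94 (6.11%), Krt7 alone in 25, Krt7 and Krt19 without Krt4 in 18, and Krt19 alone in 1. Median depth was 19224 UMIs in the first of these classes and 13416 in cells with Krt4 and Krt7 without Krt19. It was 7570 in those with Krt4 and Krt19 without Krt7 and 4598 in cells with Krt4 alone. Cells of these classes that lacked a keratin were thus shallower in the median, and the part of depth in missing keratins was not tested.

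Shares of cells at equal depth describe the same keratins, which the rule used. With each cell thinned to 5000 UMIs, which left out 230 shallower cells, Krt4 had a UMI in 96.3% of the remaining 1308 conjunctival-like cells (97.1% unthinned), 37.4% of keratin-low cells and 4.46% of the reference cells, whose median depth was 6725 UMIs. Krt7 had one in 74.5%, 41.4% and 0.811% of these cells, and Krt19 in 63.3%, 4.39% and 1.22%. Krt12 was found in 8.56%, 10.3% and 4.46%. Krt7 was thus also present in many cells below the limit, whereas few of those had Krt19.

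Krt13, a mucosal type I keratin that the rule did not use, was at 4329 CPM against 117 CPM in the keratin-low cells (37.1-fold) and 615 CPM in the wild-type Krt12-high cells (7.04-fold). A Krt13 UMI was in 83.1% of the thinned conjunctival-like cells, 18.7% of keratin-low cells and 5.17% of reference cells. In the GENCODE annotation of GRCm38 the gene lies on the minus strand of chromosome 11 at 100117327-100121566, next to Krt15 (100131758-100135928) and Krt19 (100140810-100148665), while Krt12 lies on the same chromosome at 99415666-99422259. Krt4 (101918535-101924735, minus strand) and Krt7 (101411043-101430313, plus strand) lie on chromosome 15. The 250 bases upstream of the start in RefSeq are shown for Krt7 and Krt13, which were high, and for Krt12, which was nearly absent, so that the start regions of these keratins can be compared. They are from RefSeq (GRCm38.p6) and are at chr15:101412153-101412402 (plus strand), chr11:100121567-100121816 and chr11:99422260-99422509 (both minus strand); for Krt13 the farthest upstream of 2 starts was taken. The RefSeq start of Krt7 lies inside the gene span of the GENCODE annotation, downstream of its first base. The table matched 3 of 6 keratins looked up and not Krt4, Krt15 and Krt19. Capitals mark matches, on either strand, of 4 short motifs that are spelled out after the sequences.
Krt7: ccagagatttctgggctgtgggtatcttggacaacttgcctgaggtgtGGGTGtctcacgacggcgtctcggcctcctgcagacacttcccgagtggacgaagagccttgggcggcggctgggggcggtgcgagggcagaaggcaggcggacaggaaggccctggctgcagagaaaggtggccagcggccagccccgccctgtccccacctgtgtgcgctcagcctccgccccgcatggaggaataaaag
Krt13: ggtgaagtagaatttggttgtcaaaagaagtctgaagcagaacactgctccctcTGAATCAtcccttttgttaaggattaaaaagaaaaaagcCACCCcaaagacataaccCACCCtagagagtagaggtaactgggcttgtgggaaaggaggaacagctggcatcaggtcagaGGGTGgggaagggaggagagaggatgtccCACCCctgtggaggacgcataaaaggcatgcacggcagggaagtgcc
Krt12: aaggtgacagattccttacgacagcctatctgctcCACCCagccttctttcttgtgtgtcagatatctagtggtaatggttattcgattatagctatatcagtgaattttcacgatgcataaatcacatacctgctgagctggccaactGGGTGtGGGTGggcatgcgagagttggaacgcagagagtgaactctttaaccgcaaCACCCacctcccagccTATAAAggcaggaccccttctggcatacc
The KLF family motif CACCC occurred in all 3 windows, 1 time upstream of Krt7 and 4 times upstream of each of the others, and in 52.0% of the 32851 windows of this length in the table. The AP-1 motif TGANTCA matched only the Krt13 window, 196 to 190 bases upstream of the start, and 6.75% of all windows. The TATA box motif TATAAA matched only the Krt12 window, at 29 to 24 bases upstream, and 12.4% of all windows. The Grainyhead-like motif AACCGGTT was in none of the 3 windows and in 0.116% of all. No match overlapped another, and each is a description of these letters alone.

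The other keratins outside the rule formed 2 groups. Of 8 listed mucosal and simple keratins, 5 reached 20 CPM on either side within the library (measured genes below), and 4 were at least 2-fold higher in the conjunctival-like than in the keratin-low cells, a difference in size alone that is called 2-fold below. Of all measured genes 8.55% were higher by that much and 11.3% lower within the library, and 11.0% and 8.13% against the wild-type Krt12-high cells. Besides Krt13 these were Krt80 (112 against 7.07 CPM), Krt23 (22.0 against 2.73 CPM) and Krt8, the simple-epithelial type II keratin (88.5 against 11.4 CPM). Krt18, the usual partner of Krt8, was at 16.8 and 20.6 CPM. Of the 4 keratins known from wounded epithelium, Krt6b (1710 against 49.3 CPM), Krt6a (2467 against 223 CPM) and Krt16 (440 against 131 CPM) were higher, and Krt17 was at 1067 and 1303 CPM. Against the wild-type Krt12-high cells the order differed. Krt17 was 111-fold higher in the conjunctival-like cells (9.62 CPM in the wild type), while Krt6a and Krt6b were at 2128 and 1682 CPM there, under 2-fold apart, and Krt16 at 673 CPM.

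Several mucins of the cell surface stood out within the library, and those of goblet cells did not. Of 6 measured genes of the mucin and glycocalyx list of 9, 5 were 2-fold higher than in the keratin-low cells and none was lower. Muc4, a large membrane mucin, was at 712 against 20.5 CPM, Muc20 at 58.5 against 1.33 CPM, Muc1 at 58.5 against 1.77 CPM and Muc15 at 49.8 against 3.35 CPM. Muc16, another membrane mucin, was nearly absent on both sides, at 0.141 and 0.239 CPM. Lgals3, a lectin that binds surface mucins, was at 977 against 233 CPM. A Muc4 UMI was in 62.1% of thinned conjunctival-like cells, 5.81% of keratin-low cells and 0.811% of reference cells. Only Muc1 was also 2-fold higher than in the wild-type Krt12-high cells (2.93 CPM), where Muc4 was at 439 and Muc20 at 37.7 CPM. Muc15 was 2-fold lower than in those cells, which had 135 CPM, and with TMM factors 2 of the 6 genes were lower. Of the 10 goblet cell markers 1 reached 5 CPM. This was Agr2, a protein-folding enzyme of secretory cells, at 96.8 CPM against 16.8 CPM in keratin-low cells. Muc5ac, the gel-forming mucin of conjunctival goblet cells, was at 1.91 CPM with UMIs in 1 cell of 1538, and Muc5b, Tff3 and Gcnt3 were at 0. Of the 9 markers of lid skin 3 reached 5 CPM, namely Krt1 (26.0 CPM), Krt10 (44.6 CPM) and Sbsn (67.2 CPM), and Flg2 was at 0.

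Across all genes, 7158 reached 20 CPM in the conjunctival-like or keratin-low cells. Of these, 612 (8.55%) were higher by 2-fold or more in the conjunctival-like cells and 808 (11.3%) were lower by as much, and the median log2 ratio of all of them was -0.16. TMM factors, which rescale to the bulk of the genes, moved every log2 ratio up by 0.25 and turned the split into 848 higher and 534 lower. Directions below held under both scalings unless said otherwise.

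The 12 genes named as highest were chosen for their ratio, among genes 2-fold apart in Xist-only and in Y-linked-only cells alike. Psca, a lipid-anchored surface protein, was at 78.3 against 0.259 CPM, but only 3.67% of the thinned cells had a UMI, so few cells carried it. Cyp2a5, a cytochrome P450, was at 615 against 2.79 CPM (221-fold, 187 to 262), with a UMI in 39.9% and 0.883% of thinned cells and in 0.609% of reference cells. Mal, a membrane protein of apical transport, was at 1543 against 14.2 CPM (109-fold, 101 to 117), with 135 CPM in the reference cells. Aqp5, a water channel, was at 1092 against 17.0 CPM (64.1-fold, 59.9 to 68.7). Slc5a8, a sodium-coupled carrier of short acids, was at 73.8 against 1.65 CPM. Prss27, a serine protease, was at 211 against 1.89 CPM, and Spink5, a serine protease inhibitor, at 426 against 7.86 CPM. Serpinb11, of the clade B serpins, was at 156 against 3.42 CPM. Enzymes of other kinds were Arg1, an arginase (316 against 3.98 CPM), and Enpp3, an ectonucleotidase (135 against 1.51 CPM). Nccrp1 was at 162 against 0.896 CPM and Ifit1bl1, a relative of the interferon-induced Ifit genes, at 498 against 8.34 CPM.

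Most of these were also present in the wild-type Krt12-high cells. Mal was at 3102 CPM, Aqp5 at 5148 CPM and Psca at 400 CPM there, above the conjunctival-like cells, and Nccrp1 at 127, Serpinb11 at 114, Enpp3 at 91.5 and Slc5a8 at 52.5 CPM were less than 2-fold below them. Cyp2a5 (7.67 CPM), Ifit1bl1 (65.5 CPM), Spink5 (58.6 CPM), Arg1 (77.6 CPM) and Prss27 (56.1 CPM) were more than 2-fold lower there.

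The 12 genes named as lowest included signals, receptors and transcription factors. Adamtsl1, a secreted matrix protein, was at 27.2 against 488 CPM in the keratin-low cells (17.9-fold lower). Fst, the activin-binding follistatin, was at 11.1 against 143 CPM (12.9-fold lower) and Nrg1, a ligand of ErbB receptors, at 40.2 against 342 CPM (8.50-fold lower). Dlk2, a Delta-like membrane protein, was at 15.9 against 126 CPM, and Sema5a, a semaphorin, at 14.9 against 128 CPM. Slc6a6, the taurine carrier, was at 274 against 2198 CPM (8.02-fold lower), with a UMI in 44.0% of thinned conjunctival-like and 94.6% of keratin-low cells, and it was at 238 CPM in reference cells. Itga3, a laminin-binding integrin chain, was at 9.84 against 80.1 CPM and Antxr1, a collagen-binding receptor, at 22.6 against 218 CPM. Transcription factors were Egr3 (19.4 against 183 CPM) and Egr4 (4.48 against 54.0 CPM), both early response genes, and Gli3, of the Hedgehog pathway (6.21 against 53.8 CPM). Fndc1 was at 14.6 against 160 CPM. The reference cells had 208 CPM of Antxr1, 50.2 CPM of Gli3 and 152 CPM of Egr3, close to the keratin-low cells, and also 175 CPM of Adamtsl1, 94.2 CPM of Fst, 92.0 CPM of Sema5a and 69.0 CPM of Fndc1, and the part of free RNA was not tested.

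**Figure D2:**
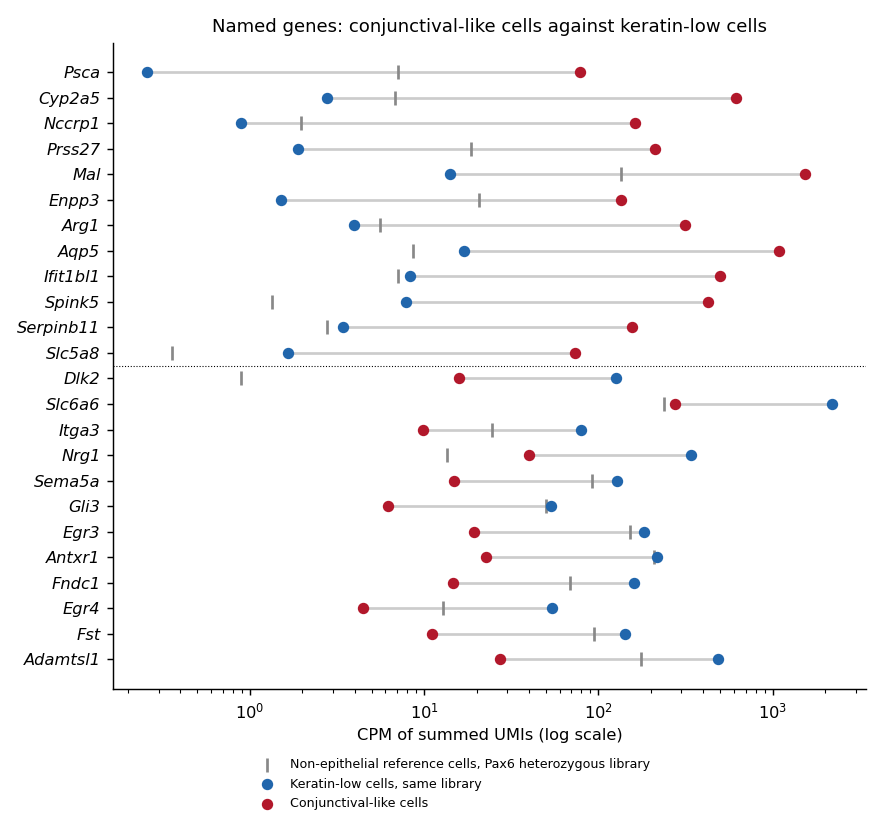
Level in CPM (horizontal axis, log scale) of the 24 named genes in 1538 conjunctival-like cells (red), 4077 keratin-low cells of the same library (blue) and 1368 non-epithelial reference cells (grey tick). Above the dotted line are the 12 genes highest in conjunctival-like cells, from Psca at 78.3 against 0.259 CPM to Slc5a8 at 73.8 against 1.65 CPM, and below it the 12 lowest.

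Genes of cholesterol and fatty acid synthesis were higher as a set. Of 18 measured genes of 19 listed, 16 were 2-fold higher in the conjunctival-like than in the keratin-low cells and none was 2-fold lower, with a median log2 ratio of 2.06. Fdps, which makes farnesyl diphosphate, was at 465 against 56.8 CPM. Sqle, the squalene epoxidase, was at 143 against 20.7 CPM. Acaca, of fatty acid synthesis, was under 2-fold apart (64.0 against 41.0 CPM). In the wild-type Krt12-high cells these genes lay at similar levels, with Fdps at 480 and Sqle at 170 CPM. There 1 of 18 was 2-fold higher in the conjunctival-like cells and 2 were 2-fold lower (median log2 ratio -0.19), and 4 were lower with TMM factors (median -0.43).

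Clade B serpins and corneal genes were also higher in part within the library. Of 6 measured serpins of 11 listed 4 were 2-fold higher and 1 was lower. Besides Serpinb11 and Serpinb3a (2506 against 243 CPM) these were Serpinb1a, an inhibitor of neutrophil proteases (400 against 59.95 CPM), and Serpinb2 (81.2 against 25.1 CPM), while Serpinb6a was lower (62.0 against 188 CPM, with 186 CPM in reference cells). Of 8 measured corneal differentiation genes 4 were higher, namely Psca, Aqp5, the uroplakin Upk1b (247 against 51.8 CPM) and the chaperone Clu (221 against 67.8 CPM). Tkt, transketolase, was lower (564 against 1148 CPM), by less than 2-fold with TMM factors.

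Cell contacts were divided between junctions and the basement membrane within the library. Of 8 measured desmosome genes 4 were 2-fold higher, among them Dsc2 (566 against 198 CPM) and Jup, which encodes plakoglobin (826 against 338 CPM), and none was 2-fold lower. Of 12 tight junction genes 5 were higher and 1 lower. Cldn3 was at 280 against 20.5 CPM, Cldn7 at 1066 against 229 CPM and Cldn23 at 71.8 against 6.55 CPM, all claudins, while Cldn1 was at 41.7 against 93.2 CPM, a difference that was under 2-fold with TMM factors. Of the 14 hemidesmosome and basement membrane genes, all measured, 11 were lower, 9 with TMM factors, and none higher (median log2 ratio -1.67). Col17a1, the transmembrane collagen of hemidesmosomes, was at 148 against 807 CPM. Lamb3, a laminin chain, was at 16.7 against 122 CPM. Itgb4, the integrin chain of hemidesmosomes, was at 55.1 against 224 CPM. Cd151, a tetraspanin that binds these integrins, was at 65.7 against 56.1 CPM. Against the wild-type Krt12-high cells 8 of the 14 were lower and 1 was higher, with Col17a1 (1281 CPM there) the lowest in ratio. Of 9 desmosome genes measured in that comparison none was higher and 2 were lower, 3 with TMM factors. Of 12 tight junction genes 3 were higher and none lower, or 2 and 1 with TMM factors. The 44 wild-type cells that met the same rule were compared at 50 CPM or more. Against them 4 of 10 hemidesmosome and basement membrane genes were higher and none lower, with Col17a1 at 71.8 CPM. Of 9 desmosome and 11 tight junction genes 2 and 3 were lower against them, and none was higher.

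Limbal genes were mostly lower than in the keratin-low cells, but not Ifitm1. Of 10 measured genes of 14 listed 6 were lower and 1 was higher (median log2 ratio -1.17), and 3 were lower with TMM factors. Gpha2, a glycoprotein hormone subunit known from limbal stem cells, was at 84.7 against 522 CPM, with a UMI in 15.3% of thinned conjunctival-like cells, 67.1% of keratin-low cells and 3.04% of reference cells. Trp63, the p63 transcription factor of basal cells, was at 168 against 377 CPM and the membrane protein Ifitm3 at 669 against 1505 CPM. Its relative Ifitm1 was at 3828 against 954 CPM. Replication genes outside the rule followed the same direction, with 8 of 11 measured genes lower and none higher (5 lower with TMM factors). The cyclin Ccnd2 was at 356 against 1239 CPM and the helicase subunit Mcm6 at 26.4 against 70.1 CPM. Since the rule left out cycling cells on both sides by raw UMIs, these levels belong to cells without strong cycling marks. A fixed number of raw UMIs is a stricter limit in deeper cells, and median depth was 15696 UMIs in conjunctival-like and 12910 in keratin-low cells. The part of this limit in the lower replication genes was not tested.

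Signalling genes differed by family. Of 11 measured BMP and TGF-beta genes 9 were lower, 7 with TMM factors, and none higher (median log2 ratio -1.58). Besides Fst these included the ligand Tgfb1 (11.4 against 66.6 CPM), the receptor Tgfbr2 (21.8 against 105 CPM), the inhibitor Smad7 (16.4 against 56.4 CPM) and the target Id3 (134 against 402 CPM), while Id1 was at 784 and 822 CPM. In the heterozygous reference cells Tgfb1, Tgfbr2, Smad7 and Id3 were at 131, 210, 157 and 1538 CPM, above both groups. Fst (94.2 CPM) and Id1 (483 CPM) were not, and the part of free RNA was not tested. Of 6 Wnt genes 3 were lower, Wnt10a (21.4 against 145 CPM), Wnt6 (6.07 against 40.2 CPM) and the Dickkopf protein Dkk3 (14.1 against 82.9 CPM), and Wnt4 was at 433 and 369 CPM. Among 8 Notch genes the ligands Jag2 (19.5 against 148 CPM) and Dll1 (9.21 against 69.7 CPM) were lower, and the receptor Notch3 (138 against 44.0 CPM) and the target Nrarp (75.35 against 20.03 CPM) were higher. EGF family ligands differed one from another. Areg (275 against 43.1 CPM), Ereg (71.2 against 13.4 CPM) and Btc (32.6 against 5.52 CPM) were higher, and the feedback inhibitor Errfi1 (169 against 451 CPM) was lower. All 8 measured matricellular and matrix genes were 2-fold lower, 7 with TMM factors, such as Thbs1, thrombospondin 1 (15.98 against 143 CPM), and Ccn2 (7.41 against 43.9 CPM). Reference cells had 364 CPM of Thbs1 and 71.1 CPM of Ccn2, and the list's median log2 ratio of -2.22 was -2.12 without cells that had 3 or more UMIs of other cell types.

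Immune genes within the library differed by list. Of 8 measured secreted defence genes 3 were higher and 1 was lower. Ltf, lactoferrin, was at 42.1 against 0.816 CPM, Plac8 at 602 against 26.7 CPM and Wfdc18, of the whey acidic protein family, at 126 against 50.2 CPM, while the lipocalin Lcn2 was at 27.0 against 101 CPM, with 67.7 CPM in reference cells. Of 18 measured interferon response genes only Ifitm1 was 2-fold higher and only Ifitm3 2-fold lower, the latter not with TMM factors (median log2 ratio -0.15, and 0.10 with them). Of 9 class I antigen presentation genes none was higher and 2 were lower, Nlrc5 (12.2 against 71.5 CPM) and H2-Q4 (13.5 against 30.5 CPM), the latter not with TMM factors. Heterozygous reference cells had 69.6 CPM of Nlrc5 and 62.0 CPM of H2-Q4, and the part of free RNA was not tested. All 4 measured cytokine genes of 12 listed were higher. Il18 was at 81.1 against 5.196 CPM, Il1a at 34.6 against 3.37 CPM, Il33 at 37.2 against 4.86 CPM and Il1rn, the interleukin 1 receptor antagonist, at 42.2 against 8.58 CPM. In the wild-type Krt12-high cells Il18 (126 CPM) and Il1a (45.6 CPM) were above the conjunctival-like cells, and Il33 (3.22 CPM) and Il1rn (2.40 CPM) below. The 44 wild-type cells that met the same rule had more of all 4, by less than 2-fold, with Il18 at 120 CPM. Of 5 chemokines measured within the library Cxcl17, a mucosal chemokine, was higher (45.4 against 10.8 CPM) and 4 were lower, none of those 4 with TMM factors.

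Transcription factors of surface epithelium were higher in part. Of 19 measured epithelial factors 5 were 2-fold higher, namely Hopx, an atypical homeobox protein (1375 against 33.6 CPM), Elf5 (37.4 against 3.92 CPM), Elf3 (878 against 292 CPM), Grhl3 (58.4 against 12.1 CPM) and Grhl1 (82.7 against 29.4 CPM). Trp63 and Cebpb (308 against 710 CPM) were lower, neither of them by 2-fold with TMM factors. Heterozygous reference cells had 1730 CPM of Cebpb and 6.63 CPM of Trp63. In the wild-type Krt12-high cells Hopx was at 639, Elf5 at 3.90, Elf3 at 588, Grhl3 at 54.7 and Grhl1 at 71.6 CPM. Elf3, Grhl3 and Grhl1 were thus under 2-fold apart from that group. Factors of the eye were near level within the library, with Pax6 at 1.13-fold (1.11 to 1.15), Barx2 at 325 against 246 CPM, Meis1 at 161 against 197 CPM and Sox9 at 181 against 235 CPM. Only Pitx1 (23.6 against 10.9 CPM) was 2-fold higher. Of 13 measured detoxification enzymes 5 were higher and 3 were lower, 2 of these with TMM factors. The glutathione transferases Gsto1 (6505 against 650 CPM) and Gsta4 (4519 against 939 CPM) and the carbonyl reductase Cbr2 (6430 against 2506 CPM) were higher, and the monooxygenase Fmo2 (233 against 764 CPM), the cytochrome P450 Cyp4b1 (25.7 against 75.85 CPM) and the glutathione transferase Gstm1 (141 against 301 CPM) were lower. Heterozygous reference cells had 81.9 CPM of Cyp4b1, above both groups, but 61.4 CPM of Fmo2 and 84.1 CPM of Gstm1. In the wild-type Krt12-high cells Gsto1 was at 6791, Gsta4 at 6197 and Cbr2 at 492 CPM. Within the library the anion channel Cftr (41.5 against 2.59 CPM), the anion carrier Slc26a4 (175 against 36.5 CPM) and the water and glycerol channel Aqp3 (2982 against 1153 CPM) were higher.

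Genes moved stepwise with the keratin sum rather than at the limit. Across 7 bins of the Krt12-low cells, from no keratin UMI over the limit to 100 and more, Krt13 stood at 32.1, 66.9, 334, 1129, 3856, 7629 and 11856 CPM. Hopx ran from 14.9 to 3306 CPM, Mal from 11.1 to 5006 CPM with its lowest value of 9.29 CPM in the second bin, and Muc4 from 8.11 to 1590 CPM. Slc6a6 went down from 3049 to 26.1 CPM, Gpha2 from 658 to 5.40 CPM and Col17a1 from 934 to 13.5 CPM. Krt14 stood at 5303 CPM in cells with no keratin UMI and 715 CPM at the top. Pax6 kept between 700 and 906 CPM in all 7 bins. Serpinb3a, a clade B serpin, levelled off, with 1490, 2764, 3166 and 3017 CPM in the 4 bins above the limit, which held 565, 587, 323 and 63 cells.

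**Figure D3:**
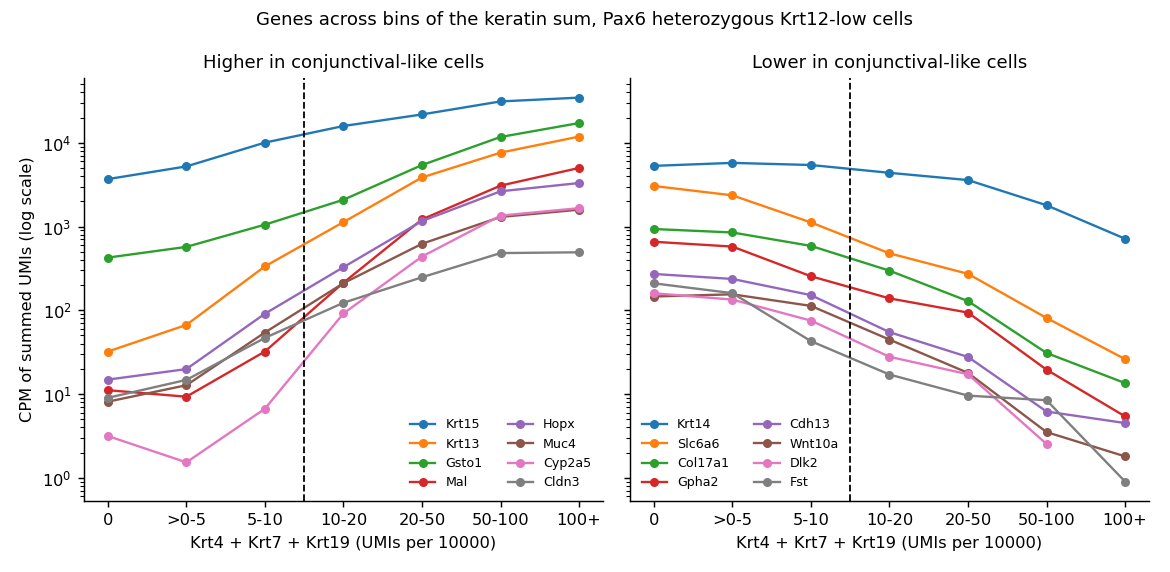
Level in CPM of summed UMIs (vertical axis, log scale) of 8 genes higher (left) and 8 lower (right) in conjunctival-like cells, over bins of the summed Krt4, Krt7 and Krt19 (horizontal axis, UMIs per 10000). The dashed line is the limit of 10, and Krt13 goes from 32.1 to 11856 CPM while Slc6a6 goes from 3049 to 26.1 CPM; the empty last point of Dlk2 is a level of 0.

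The conjunctival-like cells were not alike among themselves. Over the 1308 cells thinned to 5000 UMIs, all of 1 library, Krt14 and Krt15 went in opposite directions (Spearman's rho -0.63), as did Krt14 and Muc4 (-0.56) and Hopx and Slc6a6 (-0.43). Hopx and Gsto1 (0.78), Gsto1 and Krt6b (0.77), Hopx and Mal (0.69), Krt4 and Krt13 (0.63) and Krt15 and Krt19 (0.51) went together. These are descriptions across cells of 1 library, and cells are not replicates. Krt4 had the most UMIs of the 3 keratins in 1170 cells (76.1%), Krt19 in 187 (12.2%) and Krt7 in 139 (9.04%), with 42 ties. The 139 cells led by Krt7 stood apart in more than the rule's genes. They had 246 CPM of Serpinb3a against 2770 CPM in those led by Krt4 and 2046 CPM in those led by Krt19. Asprv1, a retroviral-like protease of surface cells, was at 2005 CPM in them against 490 and 634 CPM, and Wfdc18 at 449 against 98.6 and 146 CPM. Their Krt15 was at 9050 CPM, against 23775 and 24242 CPM. Median depths were 11590, 16354 and 18532 UMIs. This division was chosen after the data were seen.

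A Gpha2 UMI was present in 445 of the conjunctival-like cells (28.9%, 26.7 to 31.3). These cells were deeper, with a median of 21386 UMIs against 13744 in the other 1093, and the part of depth in the division was not tested. They had 467 CPM of Slc6a6 against 132 CPM, 59.3 CPM of the cadherin Cdh13 against 6.99 CPM, 241 CPM of Col17a1 against 80.2 CPM and 43.5 CPM of Wnt10a against 5.09 CPM. Krt4, Krt19 and Krt13 stood at 2145, 938 and 3908 CPM in them and at 2768, 1213 and 4640 CPM in the others.

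Cells of the sexes were close in most genes. Of 3511 genes with at least 50 CPM in either, sex-linked marker genes left out, 15 (0.427%) were at least 2-fold higher in the 813 Xist-only and 2 (0.0570%) at least 2-fold higher in the 496 Y-linked-only conjunctival-like cells. Tfcp2l1, a transcription factor of the Grainyhead-related family, was at 86.0 against 15.0 CPM, and Cxcl17 at 73.9 against 13.5 CPM. Both differed likewise among the keratin-low cells, with 83.6 against 22.5 CPM and 20.5 against 3.07 CPM. Psca was at 109 against 32.2 CPM and Alox12e, an epithelial lipoxygenase, at 81.5 against 25.6 CPM. The 2 in the other direction were Wfdc18 (77.8 against 212 CPM) and Tmsb4x, thymosin beta 4 (19010 against 38859 CPM). How many mice stand behind each sex is not in the labels, so sex and mouse cannot be told apart.

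Against the wild-type Krt12-high cells, 6780 genes were measured, of which 747 (11.0%) were higher by 2-fold or more in the conjunctival-like cells and 551 (8.13%) were lower by as much (median log2 ratio 0.10). TMM factors moved all log2 ratios by -0.24 and gave 563 higher and 756 lower. With Xist-only cells alone the counts were 823 and 543. This comparison sets cells of different keratin type and of different libraries against each other, and it shares the conjunctival-like cells with the one within the library.

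The 12 genes named as highest were mostly near 0 in the wild-type cells. Serpinb3a was at 2506 against 4.36 CPM (576-fold, 522 to 637), with a UMI in 84.9% and 0.818% of thinned cells and 2.64% of heterozygous reference cells. Cyp2f2, a cytochrome P450 known from airway club cells, was at 1535 against 2.32 CPM, with 172 CPM in heterozygous and 425 CPM in wild-type reference cells, the latter above the wild-type Krt12-high cells. Wfdc18 was at 126 CPM against 1 UMI in all wild-type Krt12-high cells, with a counting interval of 2058 to 453260 for the ratio, and Alox12e at 54.9 CPM against 3 UMIs (1672-fold, 571 to 8118). In the Xist-only cells Wfdc18 was at 77.8 CPM and Alox12e at 81.5 CPM. Esp6, of the exocrine gland-secreted peptides, was at 82.5 against 0.0875 CPM, and Ocm, the calcium-binding oncomodulin, at 154 against 1.03 CPM. Fut9, a fucosyltransferase, was at 115 against 0.438 CPM, Flrt2, a membrane protein of cell adhesion, at 124 against 0.788 CPM, and Kcnq5, a potassium channel, at 312 against 2.10 CPM. Dapk2, a protein kinase, was at 82.6 against 0.175 CPM, Klf12, a zinc finger factor, at 98.7 against 0.624 CPM and Ccdc3 at 154 against 0.788 CPM. Reference cells had 98.1 CPM of Klf12 and 46.5 CPM of Dapk2. Several of these were as high or higher in the keratin-low cells of the same library, with Kcnq5 at 711, Ccdc3 at 476 and Dapk2 at 126 CPM.

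The 12 genes named as lowest were genes of the wild-type corneal type. Slurp1, a secreted Ly6-related protein abundant in cornea, was at 0.459 against 3018 CPM, from 13 and 275847 UMIs (6581-fold lower). Lypd2, of the same family, was at 6.49 against 4476 CPM and Mgarp, a mitochondrial protein, at 35.8 against 5276 CPM. Trpm3, a cation channel, was at 5.29 against 710 CPM and Lsamp, an adhesion protein, at 3.14 against 689 CPM. Genes of glycogen metabolism were Pygl, the glycogen phosphorylase (0.847 against 97.5 CPM), and Ppp1r3c, a glycogen-targeting phosphatase subunit (3 UMIs, 0.106 against 59.4 CPM). Gldc, of glycine breakdown, was at 0.176 against 52.8 CPM. Sphkap was at 0.212 against 109 CPM, Fam169a at 0.600 against 260 CPM, Frmd4a at 1.94 against 224 CPM and Ppfia2 at 0.423 against 69.3 CPM. In the keratin-low cells of the same library Slurp1 was at 0.677, Lypd2 at 4.70 and Mgarp at 57.8 CPM, and Frmd4a, at 18.8 CPM, Fam169a, at 4.10 CPM, and Lsamp, at 11.47 CPM, were above the conjunctival-like cells. The 409 Krt12-high cells of that library had 351, 1954 and 3057 CPM of Slurp1, Lypd2 and Mgarp.

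**Figure D4:**
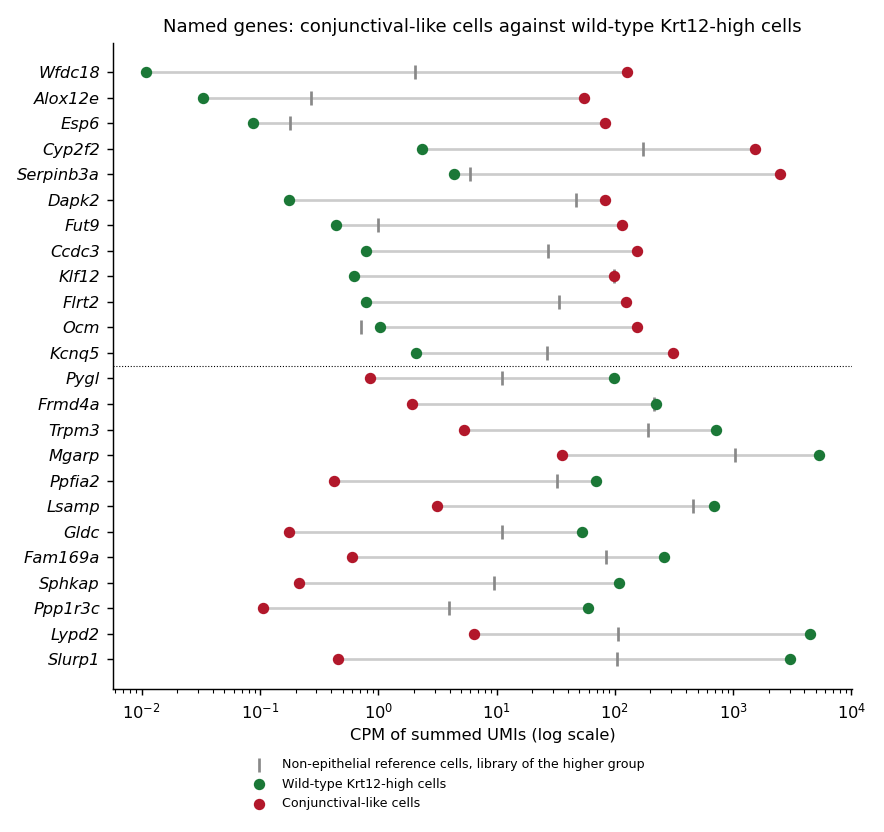
Level in CPM (horizontal axis, log scale) of 24 named genes in 1538 conjunctival-like cells (red), 7361 wild-type Krt12-high cells (green) and the non-epithelial reference cells of the library in which the gene is higher (grey tick). Serpinb3a is at 2506 against 4.36 CPM above the dotted line, and Slurp1 at 0.459 against 3018 CPM below it.

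Corneal differentiation genes were mostly lower than in the wild type and secreted defence genes mostly higher. All 12 corneal differentiation genes were measured, 9 were lower and none higher (median log2 ratio -2.24). Tkt, the transketolase abundant in cornea, was at 564 against 5630 CPM, Aldh3a1, the corneal crystallin aldehyde dehydrogenase, at 2324 against 10970 CPM and Dsg1a, a desmosomal cadherin, at 15.1 against 304 CPM. The heterozygous reference cells had 300 CPM of Aldh3a1. Of 8 measured secreted defence genes of 14 listed 7 were higher, 6 with TMM factors. The protease inhibitors Wfdc2 (517 against 165 CPM) and Slpi (49.9 against 10.8 CPM) and the defensin Defb1 (474 against 203 CPM) were among them. Ltf, lactoferrin, was at 42.1 CPM against 1 UMI, with 8.69 CPM in reference cells. Lcn2 was at 27.0 CPM, below the 67.7 CPM of the heterozygous reference cells.

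More interferon and antigen presentation genes reached 2-fold against the wild type than within the library. Of 18 measured interferon response genes 12 were higher, 9 with TMM factors, and none was lower. Ifitm3 was at 669 against 53.6 CPM, Ifi27l2a at 240 against 20.5 CPM, Bst2 at 76.0 against 22.1 CPM and Isg15 at 193 against 82.5 CPM. Of 7 class I genes 4 were higher, with B2m, the light chain of class I molecules, at 778 against 117 CPM and the heavy chain H2-K1 at 680 against 264 CPM. Reference cells of both libraries had more B2m (1406 and 1210 CPM) and more Ifitm3 (1389 and 771 CPM), but Ifi27l2a was at 86.8 and 70.2 CPM there. Other epithelial cells of the heterozygous library also had more of both. The Krt12-high cells there had 999 CPM of B2m and 1017 CPM of Ifitm3, and the keratin-low cells 1009 and 1505 CPM. The keratin-low cells had 262 CPM of Ifi27l2a, 127 CPM of Bst2 and 716 CPM of H2-K1, but less Isg15 (149 CPM). The median log2 ratio of the interferon list was 1.23, or 1.00 with TMM factors and 1.20 without cells that had 3 or more UMIs of other cell types.

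Factors of the eye were higher in 4 of 7 measured genes, 2 with TMM factors. Barx2, a homeobox factor, was at 325 against 3.49 CPM and Pitx1 at 23.6 against 0.667 CPM, and with TMM factors these 2 remained. Pax6 was 2.27-fold higher (2.24 to 2.31) and Foxc1, a forkhead factor, was at 111 against 54.8 CPM. Ion and water transport genes were higher in 4 of 7 cases. Cftr was at 41.5 against 0.164 CPM, Slc26a4 at 175 against 3.60 CPM and the sodium pump chain Atp1b1 at 78.1 against 0.952 CPM. Glycolysis and hypoxia genes were higher in 6 of 15, 4 with TMM factors and then with 1 lower, such as Tpi1 (253 against 85.1 CPM). Retinoid genes were mixed, with 4 of 9 higher, among them the binding protein Crabp2 (67.0 against 3.26 CPM), and 2 lower, the vitamin A dehydrogenase Aldh1a1 (19.9 against 108 CPM) and the retinoic acid hydroxylase Cyp26b1 (5.19 against 82.0 CPM).

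**Figure D5:**
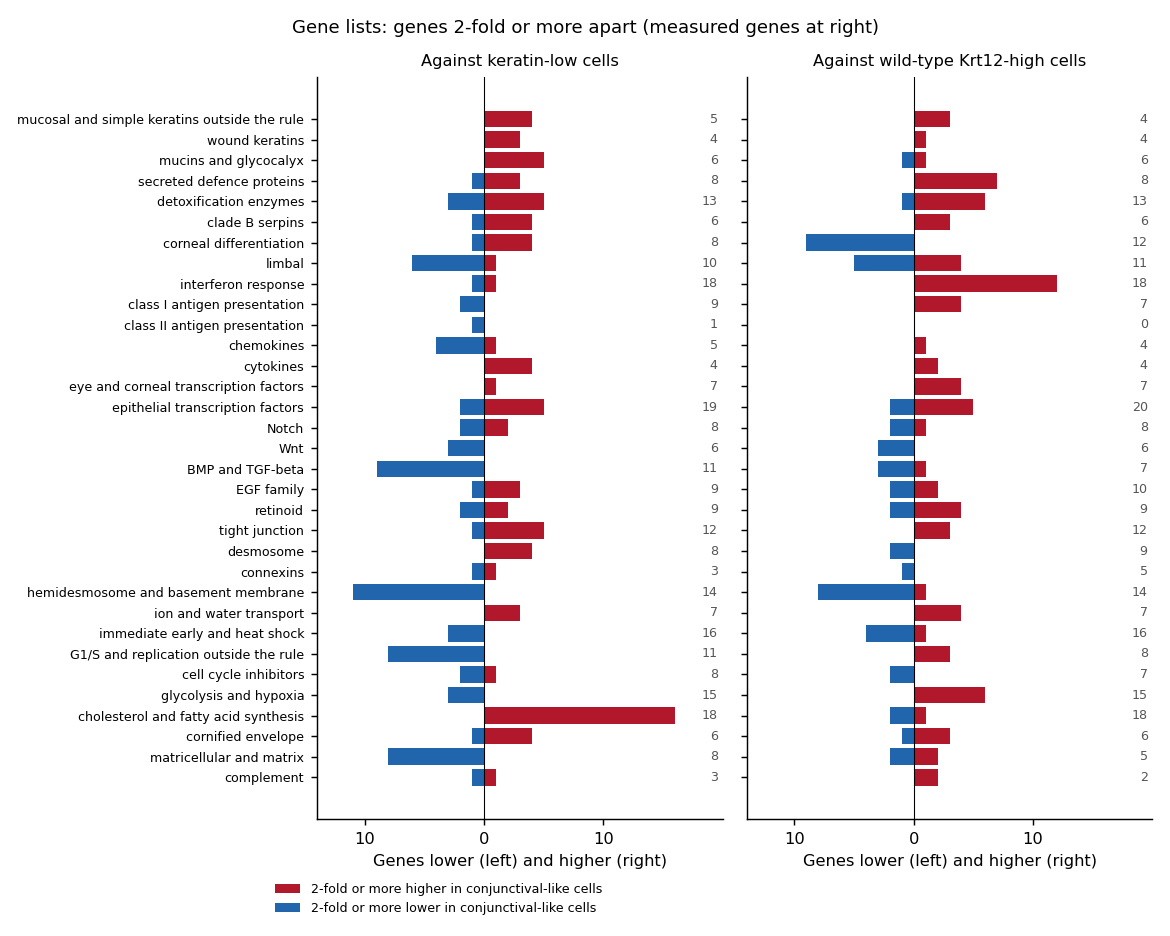
Number of genes at least 2-fold higher (red, to the right) or lower (blue, to the left) in conjunctival-like cells, per gene list, against keratin-low cells of the same library (left panel) and wild-type Krt12-high cells (right panel), with the number of measured genes at the right edge. Cholesterol and fatty acid synthesis has 16 of 18 genes higher in the left panel and 1 of 18 in the right one.

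The nearest wild-type cells were the 44 that met the same keratin rule, a comparison added after the data were seen. They held 905889 UMIs without mitochondrially encoded genes, so only the 3674 genes with at least 50 CPM on either side were counted. Of these 375 (10.2%) were higher by 2-fold or more in the heterozygous conjunctival-like cells and 196 (5.33%) were lower by as much, and TMM factors, which moved the log2 ratios by -0.27, gave 226 and 322. With Xist-only cells alone the counts were 432 and 175. Krt4 was at 3146 CPM, Krt19 at 1454 CPM, Krt15 at 35471 CPM and Krt13 at 6020 CPM in the wild-type counterparts, each within 2-fold of the heterozygous cells, and Krt7 was at 243 CPM. Krt14 was at 549 CPM, 5.93-fold below the heterozygous cells. Krt12 was at 1738 CPM, with 1387 CPM in the wild-type reference cells.

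Of 6 measured mucin and glycocalyx genes none was 2-fold higher and 4 were 2-fold lower in the heterozygous cells than in the wild-type counterparts, and of 6 serpins 2 were higher and 1 was lower. Muc4 was at 1902 CPM, Mal at 6091 CPM and Gsto1 at 30890 CPM in them, all above the heterozygous conjunctival-like cells, and so was Krt6b at 6574 CPM. Serpinb3a (786 CPM), Cyp2f2 (215 CPM) and Cyp2a5 (211 CPM) were present but lower than in the heterozygous cells. Pax6 was at 252 CPM in them, 3.30-fold (2.89 to 3.77) lower than in the heterozygous cells. B2m was at 64.0 CPM and Ifi27l2a at 2.21 CPM, against 778 and 240 CPM in the heterozygous cells. Fibroblast markers summed to 22.1 CPM in the counterparts and to 409 CPM in the heterozygous cells, and their part in these differences was not tested.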

How the data were processed

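The deposited files were gene-by-barcode tables of UMI counts for 2 libraries, 1 wild type and 1 Pax6 heterozygous, made by the authors with Cell Ranger 8.0.0, per the file headers, on GRCm38, per the submitters' processing notes. The authors' counts were used without rescaling or integration, and cell labels come from keratin limits alone. The cells, the gene lists and the rules were chosen with earlier results of these data known. The non-epithelial reference cells, the division by leading keratin and the comparison with the 44 wild-type counterparts were chosen after the data were seen.

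UMIs were summed over the cells of a group, mitochondrially encoded genes were left out, and sums were scaled to CPM. Genes with at least 20 CPM on either side entered a comparison, or 50 CPM for the wild-type counterparts and for the sexes. Named genes were the 12 with the largest ratio in each direction among genes with at least 50 CPM in the higher group, 2-fold apart in the same direction in Xist-only and in Y-linked-only cells, and higher than in the reference cells of that library. Genes of the rule, sex-linked markers and predicted genes were left out. From each list the highest and lowest ratios and the most abundant genes were named as well, apart from a few genes that are not reported here. A group with fewer than 3 UMIs of a gene was set to 3 UMIs in ratios. Intervals for ratios are exact conditional binomial ones. With 1 library per genotype no test was run, and "2-fold" names a size. Doublets were not called, and the deepest cells were left out as an alternative. Cells were thinned to 5000 UMIs where shares were compared. Steps were tested on simulated data. Python 3.11.15, numpy 2.4.6, scipy 1.17.1, pandas 2.3.3, matplotlib 3.10.9, R 4.3.3 and edgeR 4.0.16 (TMM factors only) were used.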

Additional observations from a re-analysis of the deposited data

How the results depend on the processing

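With 1 library per genotype, counting error is known and the spread between animals is not. No paired analysis was possible because each genotype has 1 library. The number of conjunctival-like cells was 813 with Xist-only cells, 496 with Y-linked-only cells, 693 without cells that had 3 or more UMIs of other cell types and 973 with a keratin sum of at least 20, each of which takes fewer cells by its construction. Against the keratin-low cells, genes at least 2-fold higher numbered 1712 with no minimum level. Those lower numbered 3761 with no minimum level, 451 with at least 50 CPM, 534 with TMM factors and 1237 with a keratin sum of at least 20 set against under 5. Against the wild-type Krt12-high cells, genes higher numbered 5268 and genes lower 1938 with no minimum level, and 433 and 359 with at least 50 CPM. Against the wild-type counterparts they numbered 226 higher and 322 lower with TMM factors, and 1036 were higher with at least 20 CPM. The minimum level sets how many genes are counted, and TMM factors move all ratios together. The cause of the other shifts was not tested. Counts under the remaining alternatives, such as leaving out the 5% of cells with the most UMIs or those with 3 or more UMIs of other cell types, were within 1.5 times the main ones. The single genes followed here were the named genes, the keratins that the rule used, and Pax6. Of 28 such genes at least 2-fold apart within the library, none changed direction or came under 2-fold. They were followed in 320 alternative values, those of genes under 2-fold included. The choice of the cells by these keratins, and of the named genes by large ratios in both sexes, largely fixed this. Of 31 such genes against the wild-type Krt12-high cells, only Pax6 came under 2-fold, with TMM factors. Of 16 and 12 list medians at least 2-fold apart, 11 and 8 alternative values came under 2-fold and none changed direction.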

Other observations

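Genes of the outer layers of stratified epithelium were present in part. Of 6 measured cornified envelope genes of 15 listed, 4 were at least 2-fold higher in the conjunctival-like than in the keratin-low cells and 1 was lower. Sprr1a, a small proline-rich envelope protein, was at 443 against 38.4 CPM, Sbsn at 67.2 against 14.2 CPM, Krt1 at 26.0 against 10.7 CPM and Krt10 at 44.6 against 19.3 CPM. Tgm2, a transglutaminase, was at 24.9 against 104 CPM, with 206 CPM in the reference cells. Cdkn2b, an inhibitor of cyclin-dependent kinases, was the 1 of 8 measured cell cycle inhibitors that was 2-fold higher (37.3 against 1.85 CPM), and it stood at 35.3 CPM in the wild-type Krt12-high cells.

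Early response and heat shock genes, which dissociation is known to induce, were measured in all 16 listed cases. Within the library none was 2-fold higher and 3 were lower, 2 of them with TMM factors. Nr4a1, a nuclear receptor of the early response, was at 67.6 against 418 CPM and Fosb, an AP-1 subunit, at 411 against 1108 CPM. The heat shock protein gene Hspa8 was at 457 against 997 CPM. Reference cells had more of all 3 (757, 1951 and 1447 CPM), and the part of free RNA and of dissociation in these differences was not tested.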
